A study of Mus musculus with 9 samples.

Results

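Kidneys of mice that received lipopolysaccharide (LPS), a bacterial endotoxin, were compared with kidneys of mice that received saline, gene by gene across the transcriptome. The members were the 15015 genes, of 34310 in the deposited table, whose level averaged at least 0.5 FPKM (fragments per kilobase of transcript, scaled to sequencing depth) over all 9 libraries of the series. Just inside that threshold stood Gnal, Snord66 and Gm13293 at 0.5 FPKM each, and just outside it Rnf180 at 0.4992, Pbx4 at 0.4994 and Gm48853 at 0.4996 FPKM. Poly(A) RNA of fresh kidney was sequenced from 3 mice given saline and 3 given LPS, the model that the series title names sepsis-associated acute kidney injury. The labels name the tissue and the treatment, and give no dose, route, time after injection, genotype, strain, sex or age. The other 3 mice of the series received LPS with thymosin β4, and their libraries entered the expression filter and the estimate of spread but no comparison below. The saline libraries held 56.6, 58.9 and 59.5 M counts and the LPS libraries 58.1, 53 and 57.9 M.

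The tubule of the kidney reabsorbs most of what the glomerulus filters, and its proximal part, rich in mitochondria and peroxisomes, oxidizes fatty acids and breaks down amino acids to pay for that work. LPS is sensed by Toll-like receptors on leukocytes, endothelium and tubule cells and switches on NF-kB, AP-1 and interferon programs. In an animal given endotoxin the kidney also meets circulating cytokines and stress hormones.

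Levels of a gene in single libraries are given below in CPM (counts scaled to library size with TMM factors), and the groups are compared as log2 changes, LPS minus saline, ± SE. A gene was called where the adjusted p of edgeR's quasi-likelihood test was under 0.05. By that rule 43.1% of the tested genes were called, 20.9% higher (3144) and 22.2% lower (3329), and the median change over all tested genes was 0.02. The saline and LPS ranges of CPM were separate in 54.3% of the tested genes, 25.8% with LPS higher and 28.5% with LPS lower. Of the called genes, 1760 were higher and 2095 lower by at least 2-fold, 429 and 279 by at least 8-fold, and 131 and 48 by at least 32-fold. Genes called higher went from 9.86%, 11.3% and 10.3% of all counts in saline to 32.9%, 33.5% and 33.7% in LPS. Genes called lower went from 41.6%, 39.7% and 40.5% to 18%, 17.5% and 18.8%. Both sets were chosen by the call on these same counts, so the direction of these shifts follows from the choice. Scaling by library totals in place of TMM factors would move the median of all genes up by 0.15, so every change below is relative to the bulk of the genes. In whole tissue, fewer cells of a type and less RNA per cell cannot be told apart.

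The LPS libraries differed from each other more than the saline libraries did. The median absolute log2 difference between a pair of libraries was 0.172 to 0.239 within saline, 0.339 to 0.5 within LPS and 0.621 to 0.721 between the groups. The SD of log2 CPM was larger in LPS for 11550 genes (76.9%), with a median SD of 0.356 in LPS and 0.181 in saline. The 9 parenchymal markers of the labelled tissue, from the glomerulus to the collecting duct, were present in all 6 libraries and summed to 9190 to 10300 CPM in saline and 1530 to 3800 CPM in LPS, with 7 of 9 called lower. Saline replicate 1 and LPS replicate 3 stood apart in tissue around the parenchyma: their 5 urothelial markers summed to 1.47 and 3.11 CPM against 48.5 to 72.6 CPM elsewhere, and their 5 adipocyte markers to 4.04 and 3.07 CPM against 63.4 to 378 CPM. In all, 164 genes (1.09%) were at least 2-fold lower in these 2 libraries than in each of the other 4. The genes with the widest spread among the LPS libraries at a mean of at least 5 FPKM, Cfd, Slc14a2, Adipoq, Psca and Ly6d, were all low in these 2 libraries and not called. Saline replicate 1 also had the highest sum of the 4 liver markers, 341 CPM against 10.2 to 53.1 CPM in the other 5 libraries. Most of that sum was Alb, itself 1 of the 4 markers. All marker sums are scaled to library totals without TMM factors. Neutrophil markers summed to 0.323 to 0.974 CPM in saline and 18.8 to 37.3 CPM in LPS (3 of 3 tested were called higher). The sum of 3 pancreatic markers was 83.5 to 127 CPM in saline and 5.13 to 14.5 CPM in LPS. Only 1 of these 3 passed the expression filter, and it was called lower. B-cell markers summed to 0.989 to 1.49 CPM in saline and 0.121 to 0.283 CPM in LPS, and T-cell markers to 2.89 to 4.72 and 0.378 to 1.97 CPM. Both sums were lower in every LPS library, at low levels. None of the 3 B-cell markers and 1 of the 4 T-cell markers passed the expression filter, and that 1 was not called. Macrophage, endothelial, fibroblast, erythroid and smooth muscle sums overlapped between the groups. Of the 5 macrophage markers 1 was called higher and 2 lower, and 1 endothelial and 1 smooth muscle marker were called lower. No fibroblast or erythroid marker was called. With a term for summed urothelial transcripts in the fit, added after seeing the data, 7170 genes were called. The part of the other sums in the results below was not tested.

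**Figure D1:**
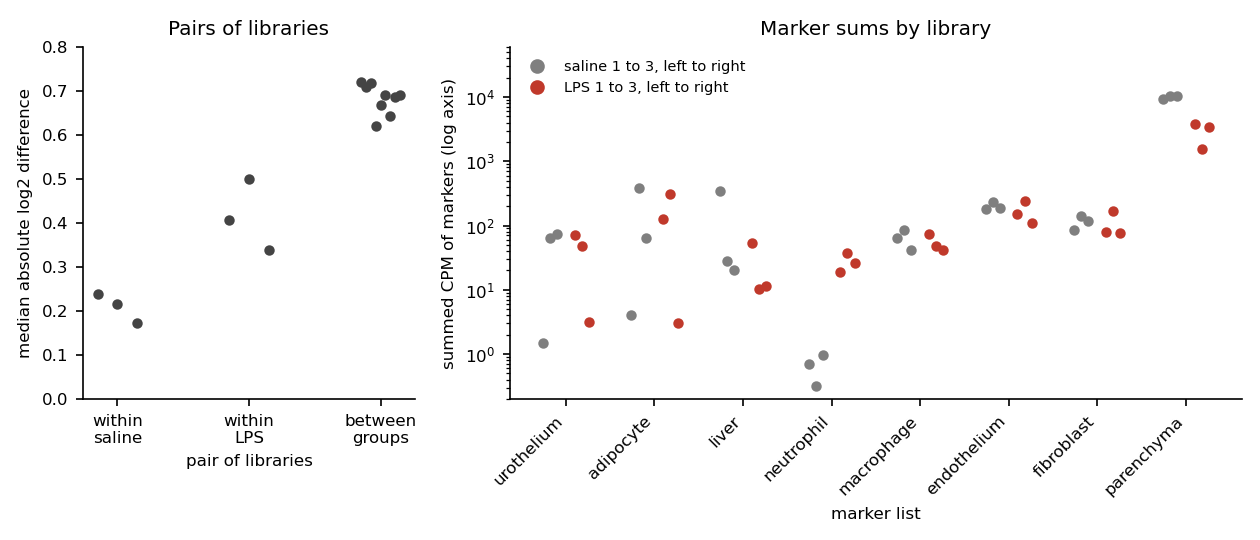
Left, median absolute log2 difference over 15015 genes for each pair of libraries, by kind of pair; right, summed CPM of fixed cell type markers in each saline (grey) and LPS (red) library on a log axis. Pairs between groups (0.621 to 0.721) lie above all pairs within a group, and saline replicate 1 and LPS replicate 3 sit lowest for urothelium and adipocyte.

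Genes of amino acid breakdown were lower in LPS almost without exception. Of 45 tested enzymes of these pathways, 40 fell (88.9%, against 22.2% of all tested genes) and none rose, with a median change of -1.69. Hibch, an enzyme of valine breakdown, stood at 68.3, 78.4 and 69.9 CPM in saline and 26, 25.1 and 25.2 CPM in LPS (-1.51 ± 0.12, adjusted p = 8.9e-05). Aldh4a1, which finishes the conversion of proline to glutamate, stood at 597, 479.8 and 602 CPM in saline and 101, 75 and 101 CPM in LPS (-2.6 ± 0.22, adjusted p = 0.00012). Gcsh, the lipoyl carrier of the glycine cleavage system, stood at 136, 87.9 and 114 CPM in saline and 30.5, 25.4 and 25 CPM in LPS (-2.06 ± 0.20, adjusted p = 0.00017). For each of these genes all 3 LPS libraries lay below all 3 saline libraries. Amt (-2.68), which works with Gcsh, fell too, as did Cth (-2.87), which releases cysteine in transsulfuration, and Ddo (-2.0), the oxidase of D-aspartate. The 5 members that did not pass were Hpd (-1.42), Fah (-0.81), Bckdha (-0.63), Glud1 (0.46) and Aass (-0.45). In the KEGG annotation carried by the table, 28 of 37 genes of glycine, serine and threonine metabolism were lower and 3 higher (median -1.67), the lowest median of any pathway of middle size, and 24 of 27 genes of glyoxylate and dicarboxylate metabolism were lower and none higher (-1.47). Butanoate metabolism (15 of 21 lower, -1.5) and propanoate metabolism (20 of 29 lower, -1.19) also had low medians. The highest medians were those of immune pathways, from 2.09 for allograft rejection (25 genes) down to 1.3 for hematopoietic cell lineage (51 genes).

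The tricarboxylic acid (TCA) cycle, which oxidizes the acetyl-CoA that these routes feed, had 19 of 22 genes lower and none higher (median -1.04). Idh3a, the catalytic subunit of NAD-dependent isocitrate dehydrogenase, stood at 227, 215 and 207 CPM in saline and 73.4, 55.5 and 59 CPM in LPS (-1.79 ± 0.16, adjusted p = 0.00013). The groups were separated by a wide gap, with the LPS libraries near each other. Ogdh (-1.44), Sucla2 (-1.19) and Idh2 (-1.45) also fell, as did the citrate synthase gene Cs (-0.58), which lost its call with library totals as the scale or with limma on FPKM, while Fh1 (0.19), fumarase, and Pdha1 (-0.48) did not pass. Of 38 peroxisomal genes 18 were lower and 2 higher (median -0.44). The largest falls of the list were those of Hao2, an oxidase of 2-hydroxy acids, and Amacr, which racemizes branched acyl-CoAs. Hao2 (ENSMUSG00000027870, chromosome 3, 98874521 to 98893239, minus strand, GRCm38) stood at 295, 167 and 316 CPM in saline and 7.9, 9.78 and 8.88 CPM in LPS (-4.87 ± 0.41, adjusted p = 0.0001), and Amacr at 257, 248 and 224 CPM in saline and 17.4, 19.5 and 24.5 CPM in LPS (-3.57 ± 0.23, adjusted p = 4.3e-05), both without overlap between groups. Cat (-1.47), catalase, and the membrane protein Pxmp2 (-2.1) fell too. Pex16 (0.84) and Pex11a (0.75) rose, but Pex16 did not pass without saline replicate 1 (adjusted p = 0.053), nor Pex11a without saline replicate 2 or 3 or LPS replicate 3 (0.065 to 0.078). Without any single saline library or LPS replicate 3, 1 peroxisomal gene rose.

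Genes of drug and steroid handling were mostly lower or unchanged by the test, with 21 of 43 lower and Mgst1 alone higher (median -1.03). Mgst1, a membrane-bound glutathione transferase, stood at 64.1, 65.5 and 67.8 CPM in saline and 267, 483 and 565 CPM in LPS (2.74 ± 0.29, adjusted p = 0.00026). Akr1c21, a hydroxysteroid dehydrogenase, stood at 1302, 1082 and 1455 CPM in saline and 28.9, 169 and 316 CPM in LPS (-2.9 ± 0.71, adjusted p = 0.011). The flavin monooxygenase Fmo5 (-2.96) and the transferases Gstt1 (-1.55) and Gstk1 (-1.76) fell. Mgst1 was higher in every LPS library than in any saline library, and Akr1c21 was lower in every one, most of all in LPS replicate 1; without LPS replicate 3 its change was -3.69. In this list 2 rose without saline replicate 1 or LPS replicate 1, and 4 rose without LPS replicate 3. Families of transport and conjugation genes named by symbol also held more falls than rises, against 22.2% lower and 20.9% higher of all tested genes. Markers of nephron segments were not taken out of these families. Of 280 genes with a solute carrier symbol (Slc6a19os and Slc7a6os, which are not transporters, among them) 118 were lower (42.1%) and 41 higher (14.6%). Of 32 ABC transporters 15 were lower (46.9%) and 1 higher (3.12%). Of 14 UDP-glucuronosyltransferases 6 were lower (42.9%), and of 19 glutathione S-transferases 7 (36.8%), with none higher. The called shares of both conjugation families did not exceed the 43.1% of all tested genes. The ABC count was 12 lower and none higher without saline replicate 1 or 2, 13 and none without LPS replicate 3, and 11 and 2 without LPS replicate 2, and 1 glutathione S-transferase rose without saline or LPS replicate 1. Among the solute carriers that rose, Slc34a2, a phosphate transporter better known from lung, stood at 3.63, 4.43 and 3.72 CPM in saline and 347, 130.3 and 62.4 CPM in LPS (5.52 ± 0.63, adjusted p = 0.00037), and Slc2a6, a glucose transporter of the lysosome, at 0.669, 0.608 and 0.462 CPM in saline and 96.3, 47.4 and 7.91 CPM in LPS (6.44 ± 1.22, adjusted p = 0.0036). LPS replicate 1 was the highest of the LPS libraries for both, and every LPS library was above saline. Without LPS replicate 1 the changes of Slc34a2 and Slc2a6 were 4.66 and 5.61.

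Of 22 glycolytic genes 5 were higher and 5 lower (22.7% each, near the 20.9% and 22.2% of all tested genes; median 0.31). The plasma membrane carriers of glucose and lactate rose, Slc2a1 (GLUT1) from 33.1, 34.6 and 38.5 CPM to 236, 121 and 96.5 CPM (2.1 ± 0.40, adjusted p = 0.0037) and Slc16a1 (1.73) (MCT1), as did the kinases Pfkp (1.74) and Pklr (1.18). The muscle-type phosphofructokinase Pfkm (-2.01) fell, along with Tpi1 (-0.93) and Pgam1 (-0.92). The hexokinase Hk2 stood at 1.56, 22.7 and 5.88 CPM in saline and 229, 192 and 11.1 CPM in LPS (adjusted p = 0.072, not called); LPS replicate 3 lay within the saline range. Without LPS replicate 3, 9 genes of the list rose and 4 fell. Of 24 genes of cholesterol synthesis 12 were lower and 3 higher (median -0.6). Idi1, which isomerizes isopentenyl diphosphate, stood at 169.8, 159 and 127 CPM in saline and 13.8, 11.9 and 8.88 CPM in LPS (-3.72 ± 0.20, adjusted p = 3.2e-05), without overlap. Hmgcs1 (-2.7), Cyp51 (-2.68) and Nsdhl (-1.76) fell as well. The 3 genes that rose, Msmo1 (0.78), Fdps (0.51) and Fdft1 (0.49), each lost their call without saline replicate 2 or 3 or LPS replicate 2 or 3 (adjusted p = 0.061 to 0.12).

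**Figure D2:**
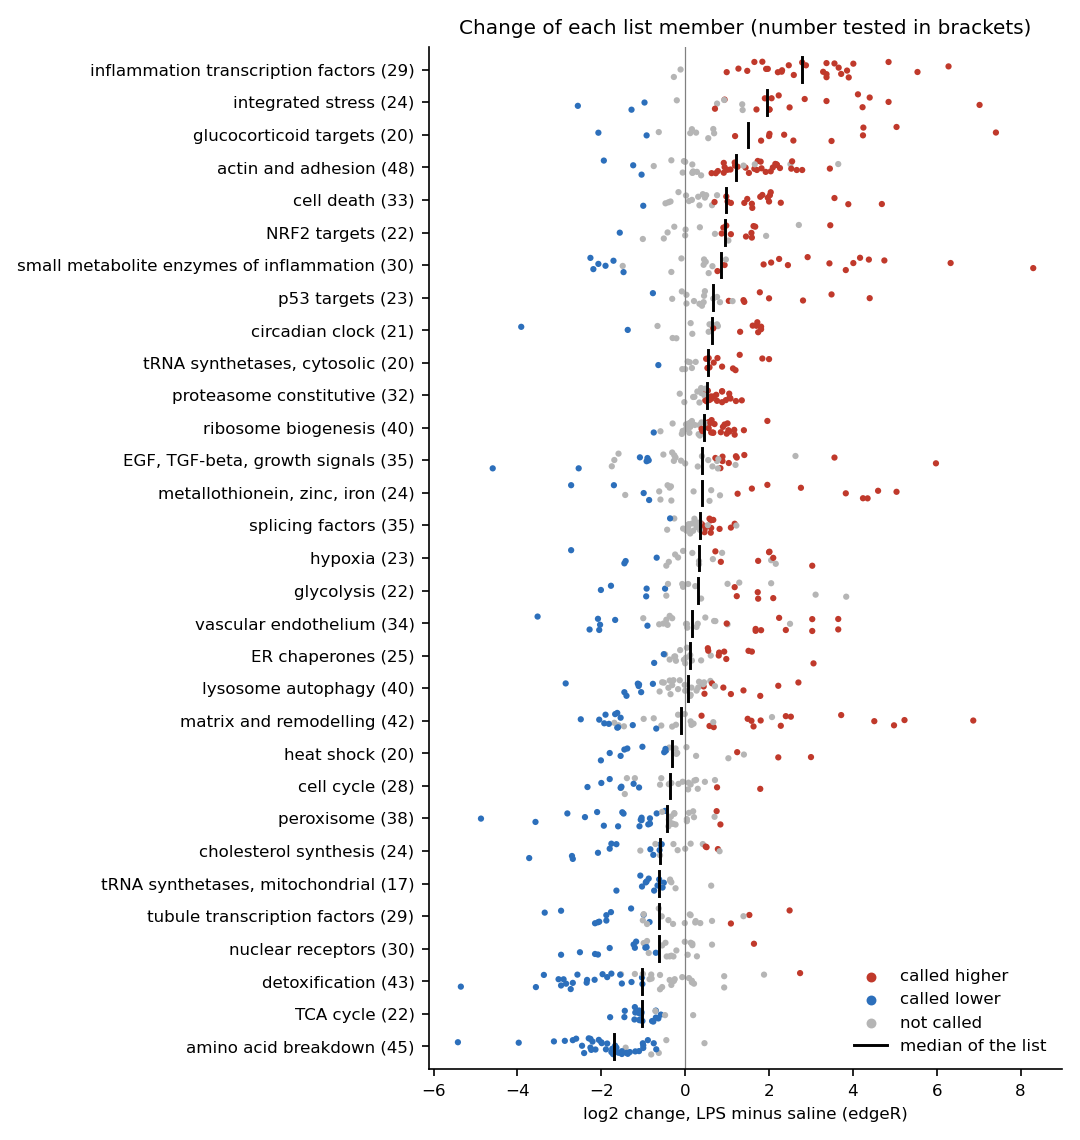
Each point is a gene, placed by its log2 change between LPS and saline, in rows of gene lists ordered by their median (black bar), red and blue for genes called higher and lower and grey for the rest. Amino acid breakdown (median -1.69) and the TCA cycle (-1.04) lie almost wholly left of 0, and inflammation transcription factors (2.79) almost wholly right of it.

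Mitochondrial genes did not fall as a block. Of the 36 tested nuclear genes of complex I, 22 fell and none rose (median -0.74; 10 without saline replicate 1), and of 78 mitochondrial ribosomal protein genes 26 fell and 1 rose (median -0.3). The latter counts were 13 and 3 without saline replicate 1, 17 and 1 without LPS replicate 2, and 19 to 24 and 4 without LPS replicate 1 or 3. On the mitochondrial chromosome itself, whose 37 genes are copied as long transcripts from both strands and cut apart afterwards, 15 were lower and 6 higher. These counts were 9 and 3 without saline replicate 1 or 3, 9 and 9 without LPS replicate 1, and 13 and 3 without LPS replicate 2. All 9 calls among the 13 protein-coding genes were lower (median -0.96). Of these, mt-Cytb, mt-Co2 and mt-Co3 lost their call without saline replicate 1 or 3 or LPS replicate 1, mt-Cytb and mt-Co2 also without LPS replicate 3, and mt-Cytb without LPS replicate 2. The 12S ribosomal RNA gene mt-Rnr1 went the other way, at 1638, 1054 and 1059 CPM in saline and 1416, 7080.4 and 4708 CPM in LPS (1.82 ± 0.58, adjusted p = 0.033), and its neighbours mt-Tf and mt-Tv, the tRNA genes on either side, changed by 2.1 and 2.81. LPS replicates 2 and 3 were high for all 3 genes and LPS replicate 1 was nearer to saline, within the saline range for mt-Rnr1. The other genes that rose, mt-Ta, mt-Tn and mt-Tc, lie on the minus strand between mt-Nd2 and mt-Co1 and changed by 1.65, 1.69 and 1.45. On the far side of mt-Nd2, mt-Tm, mt-Tq and mt-Ti changed by -2.48, -2.42 and -2.21, lower than any protein-coding gene of the chromosome. The calls of mt-Rnr1 and mt-Tc ended when any single saline library, LPS replicate 2 or LPS replicate 3 was left out (adjusted p = 0.053 to 0.13), and that of mt-Tv without saline replicate 1 or 3 or LPS replicate 2 (0.053 to 0.061), where its change was as low as 2.07. Mature tRNA and ribosomal RNA are poorly retained by poly(A) selection, which these libraries used. Nuclear copies of mitochondrial genes, listed as pseudogenes, can share reads with them, so levels of single genes are uncertain.

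**Figure D3:**
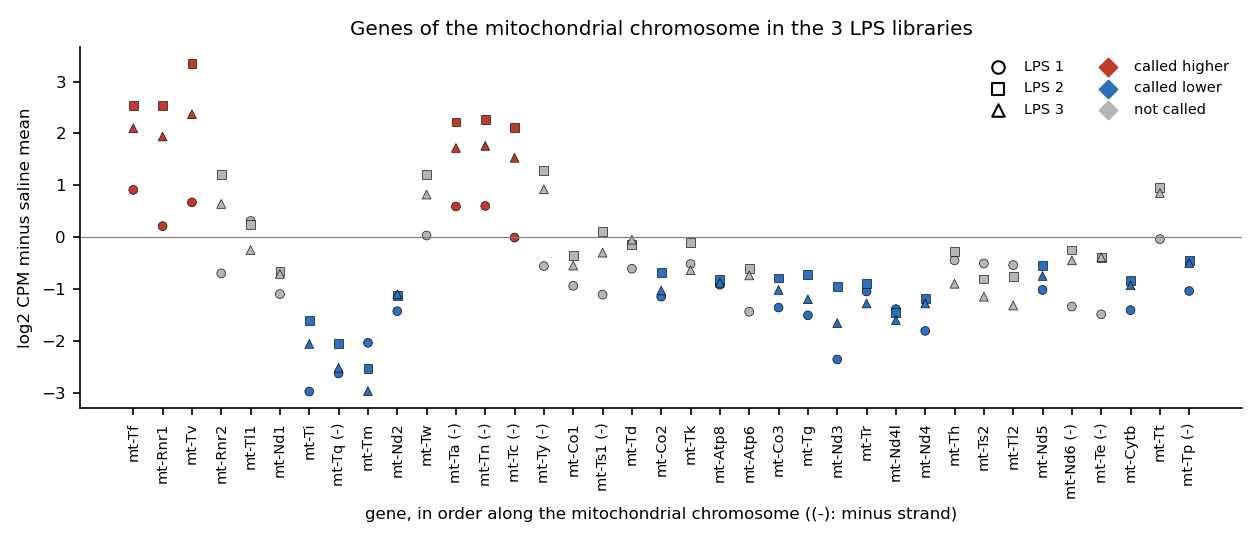
log2 CPM of each mitochondrial gene relative to the saline mean, in LPS replicates 1 (circle), 2 (square) and 3 (triangle), in order along the chromosome, coloured by call. The first 3 genes and the minus-strand cluster after mt-Nd2 lie above 0 in LPS replicates 2 and 3, and the protein-coding genes lie below 0 in all 3 libraries.

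Synthetases of the cytosol and of the mitochondrion were called in different directions. Of 20 cytosolic aminoacyl-tRNA synthetases, which charge tRNAs with amino acids, 13 rose and 1 fell (median 0.55), and of 17 mitochondrial ones 11 fell and none rose (-0.62). Kars, the lysyl-tRNA synthetase that serves both compartments, stood at 71.3, 70.6 and 74.8 CPM in saline and 167, 169 and 160.2 CPM in LPS (1.2 ± 0.10, adjusted p = 9e-05). Rars2, the mitochondrial arginyl enzyme, stood at 43.7, 38.8 and 41.6 CPM in saline and 24, 20.7 and 20.9 CPM in LPS (-0.92 ± 0.14, adjusted p = 0.0014). The cytosolic Rars (1.14), Cars (0.88) and Lars (0.77) rose and Dars (-0.64) fell, and the mitochondrial Tars2 (-0.62) and Nars2 (-1.64) fell, Tars2 without a call when library totals set the scale or limma was run on FPKM. Groups did not overlap for Kars or Rars2. The mitochondrial count was 6 lower without saline replicate 1, and 7 lower and 1 higher without LPS replicate 2. The nucleolar factors of ribosome assembly had 21 of 40 members higher and 1 lower (median 0.45; 2 lower without LPS replicate 1). Noc4l, a factor of small-subunit assembly, stood at 8.05, 9.59 and 10.3 CPM in saline and 29.4, 29.3 and 49.7 CPM in LPS (1.96 ± 0.23, adjusted p = 0.0004), and Nop14 (1.01), Gar1 (1.4), Nop58 (0.9) and Ncl (1.03) rose, while Utp20 (-0.75) fell. Of 79 cytosolic ribosomal protein genes 5 rose and none fell (6.33% called, median 0.15). That count was 9, 1 and 2 without saline replicates 1, 2 and 3, and 8, 2 and 11 without LPS replicates 1, 2 and 3. Host genes of small nucleolar RNAs, which carry guides for ribosomal RNA modification in their introns, rose in 9 of 14 cases with none lower (median 0.96). Snhg5 stood at 2.68, 3.23 and 2.64 CPM in saline and 16.1, 29.8 and 25.5 CPM in LPS (3.06 ± 0.26, adjusted p = 0.00012), with all LPS libraries far above saline. Of 35 splicing factors 13 rose and 1 fell (median 0.35), led by U2af1 (1.18), Srsf5 (0.82), Hnrnpd (0.67) and Hnrnpa1 (1.09). With any single saline library left out 6 to 8 splicing factors rose and none fell, and the fall was also lost without LPS replicate 2 or 3.

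Of 32 proteasome subunits and assembly factors, not counting the interferon-inducible ones, 20 rose and none fell (median 0.52). Psma6, a subunit of the outer ring, stood at 73.6, 79 and 79.4 CPM in saline and 135, 162 and 131 CPM in LPS (0.88 ± 0.12, adjusted p = 0.00071), and Psmd4 (1.08), Adrm1 (0.88) and Psma5 (1.21) rose with it. The integrated stress response, in which phosphorylated eIF2α favours translation of ATF4, had 16 of 24 genes higher and 3 lower (median 1.95). Atf4 stood at 78.8, 76.9 and 72.5 CPM in saline and 229, 322 and 402 CPM in LPS (2.06 ± 0.21, adjusted p = 0.00023). Ppp1r15a (GADD34), which directs dephosphorylation of eIF2α, stood at 13.5, 14.2 and 12.5 CPM in saline and 61.5, 65.4 and 97.9 CPM in LPS (2.49 ± 0.23, adjusted p = 0.00015). Every LPS library was above every saline library for both genes. Chac1 (4.23), Ddit3 (2.23), Trib3 (4.12) and the asparagine synthetase Asns (2.01) rose with them. Fgf21, a hormone gene downstream of ATF4, was without counts in saline and stood at 0.446, 0.153 and 0.219 CPM in the LPS libraries, which is at least 14.6-fold higher when saline is set to a floor of 3 counts for the whole group (0.0186 CPM), although limma on FPKM did not call it. The serine and one-carbon branch that ATF4 usually drives was divided: Mthfd2 (1.7) and Psat1 (0.71) rose, Psph (-1.28) fell, and Shmt2, the mitochondrial serine hydroxymethyltransferase, fell from 208, 177 and 209.8 CPM to 42.1, 25.2 and 33.5 CPM (-2.56 ± 0.23, adjusted p = 0.00014).

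Of 25 chaperones and sensors of the endoplasmic reticulum 9 rose and 2 fell (36% and 8%, against 20.9% and 22.2% of all tested genes). Their median was 0.12. Xbp1 stood at 112, 141 and 118 CPM in saline and 525, 902 and 1669 CPM in LPS (3.06 ± 0.44, adjusted p = 0.00097). Manf (1.51), Syvn1 (0.93) and Sec61a1 (0.80) were also higher. Xbp1 encodes a transcription factor whose mRNA is cut by IRE1, and its LPS libraries lay far above saline, whereas large chaperones such as Hsp90b1 (-0.22), Calr (-0.26) and Pdia4 (0.16) did not pass. The 2 falls, Dnajc3 (-0.74) and Edem1 (-0.51), both lost their call without saline replicate 1 or LPS replicate 2, and Edem1 also without saline replicate 2 or 3 or LPS replicate 1 (adjusted p = 0.055 to 0.11). Heat-shock genes also divided, 3 higher and 9 lower of 20 (median -0.31). The small heat-shock protein gene Hspb1 stood at 3.69, 12.1 and 12.1 CPM in saline and 96.1, 70.9 and 56.9 CPM in LPS (3.0 ± 0.55, adjusted p = 0.003), and Hspb8 (2.22) and their co-chaperone Bag3 (1.24) rose as well. Fkbp4, a partner of HSP90, stood at 297, 242 and 256 CPM in saline and 91.1, 54.9 and 51.4 CPM in LPS (-2.01 ± 0.24, adjusted p = 0.00043), and the mitochondrial chaperonin genes Hspd1 and Hspe1, which share a promoter, changed by -1.45 and -1.8. Hspb1 was higher and Fkbp4 lower in every LPS library than in any saline library. Chordc1 (-1.54) and Dnaja1 (-1.02) also fell. Hspa1a, the most inducible HSP70 gene, stood at 9.09, 35 and 23.4 CPM in saline and 111, 21.5 and 5.07 CPM in LPS (adjusted p = 0.43, not called); LPS replicate 1 alone was high.

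Antioxidant genes under NRF2 were higher in part, 10 of 22 with 1 lower (2 lower without LPS replicate 1 or 3; median 0.94). The NADPH-making enzymes of the pentose phosphate route rose: G6pdx stood at 25.5, 42 and 35.8 CPM in saline and 119, 78 and 112 CPM in LPS (1.58 ± 0.24, adjusted p = 0.0013) and Pgd changed by 1.63. Hmox1, the heme oxygenase, stood at 37.3, 36 and 38.1 CPM in saline and 298, 212 and 713 CPM in LPS (3.46 ± 0.54, adjusted p = 0.0014) and Gsr (0.91) rose. None of these genes had overlapping groups, and Hmox1 was highest in LPS replicate 3, without which its change was 2.78. The prototype target Nqo1 (0.00) and Gclm (0.35) did not pass, and Me1 (-1.56), malic enzyme, fell. Of 24 genes that bind or move zinc, copper and iron, 9 rose and 4 fell (median 0.39). Metallothioneins, small cysteine-rich proteins that buffer zinc, rose together: Mt2 (ENSMUSG00000031762, chromosome 8, 94172664 to 94173568, plus strand, GRCm38) stood at 26.8, 29.3 and 16 CPM in saline and 635, 916 and 816 CPM in LPS (5.04 ± 0.43, adjusted p = 0.00011), and Mt1 at 63.4, 60.5 and 36.5 CPM in saline and 691, 1414 and 920.2 CPM in LPS (4.24 ± 0.45, adjusted p = 0.00026). For both genes every LPS library was far above every saline library. The zinc importer Slc39a14 stood at 70.9, 81 and 45.1 CPM in saline and 278, 437 and 619 CPM in LPS (2.76 ± 0.35, adjusted p = 0.00055). The plasma ferroxidase ceruloplasmin, Cp (4.35), and the ferritin heavy chain Fth1 (1.59) rose, whereas the membrane ferroxidase Heph (-1.7) and the zinc transporter Slc39a5 (-2.72) fell. The iron exporter Slc40a1 (-0.33) and the ferritin light chain Ftl1 (-0.42) did not pass.

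Upstream of Mt2 and Mt1 the metal response element core (TGCACNC or TGCGCNC, either strand) was searched in RefSeq promoters of GRCm38.p6, 250 bases before to 50 after each start. The core is common, present in 35.8% of 10499 tested genes with a promoter in that table. The 250 bases before the start are shown for Mt2 (chr8:94172368-94172617 on the plus strand) and Mt1 (chr8:94178839-94179088 on the plus strand) because both genes rose together; capitals mark the core, with 3 matches in Mt2 and 1 in Mt1.
Mt2: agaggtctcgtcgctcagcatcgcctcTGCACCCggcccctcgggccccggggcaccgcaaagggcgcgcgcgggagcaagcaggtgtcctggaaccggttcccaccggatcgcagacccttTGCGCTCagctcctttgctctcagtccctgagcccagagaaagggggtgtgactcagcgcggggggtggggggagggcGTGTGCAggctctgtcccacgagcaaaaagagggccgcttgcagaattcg
Mt1: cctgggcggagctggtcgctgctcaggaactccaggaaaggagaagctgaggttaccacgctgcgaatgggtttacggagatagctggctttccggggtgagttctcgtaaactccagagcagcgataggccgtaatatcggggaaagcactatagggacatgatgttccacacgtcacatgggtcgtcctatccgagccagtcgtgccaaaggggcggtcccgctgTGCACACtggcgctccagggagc

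Of 29 factors known from inflammation and injury, 27 rose and none fell (median 2.79). Cebpd, a partner of C/EBPβ in the acute-phase response, stood at 3.27, 1.86 and 1.59 CPM in saline and 115, 88.4 and 109 CPM in LPS (5.54 ± 0.56, adjusted p = 0.00021). Stat3, which carries the signal of IL-6 family receptors, stood at 57.8, 68.1 and 55.6 CPM in saline and 381, 385 and 572 CPM in LPS (2.88 ± 0.20, adjusted p = 6.2e-05). Myc, the growth regulator that drives ribosome assembly genes among others, stood at 4.89, 5.12 and 2.57 CPM in saline and 44.9, 37.3 and 48 CPM in LPS (3.37 ± 0.36, adjusted p = 0.00028). The groups were far apart for Cebpd, Stat3 and Myc. Maff (3.9), Relb (3.37) and Klf6 (3.72) rose as well, and the 2 members that did not pass were Bach1 (-0.11) and Elk3 (-0.27). Of 29 factors that define tubule cells 11 fell and 3 rose (median -0.63), and of 30 nuclear receptors 12 fell and 1 rose (-0.63). Of the tubule factors 9 fell and 1 rose without saline replicate 1 or 3, and of the receptors 14 fell and 2 rose without LPS replicate 1. Hnf4a, a master regulator of the proximal tubule, stood at 896, 712 and 817 CPM in saline and 129, 139.7 and 276 CPM in LPS (-2.15 ± 0.34, adjusted p = 0.0014). Esrrg, an orphan receptor that drives mitochondrial genes, stood at 88.8, 77.7 and 87.8 CPM in saline and 15.1, 6.39 and 11 CPM in LPS (-2.96 ± 0.32, adjusted p = 0.00027). All LPS libraries were below all saline libraries in both genes, with replicate 3 highest for Hnf4a. The vitamin D receptor Vdr (-1.8) and the cholesterol sensor Nr1h3 (-1.17) fell, and the immediate-early receptor Nr4a1 (1.64) rose. Pax8, a factor of kidney development that stays on in the adult tubule, rose (1.09, adjusted p = 0.0042), as did Elf3 (2.49), whose call was lost without saline replicate 1 or 3 (adjusted p = 0.06 in each case).

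**Figure D4:**
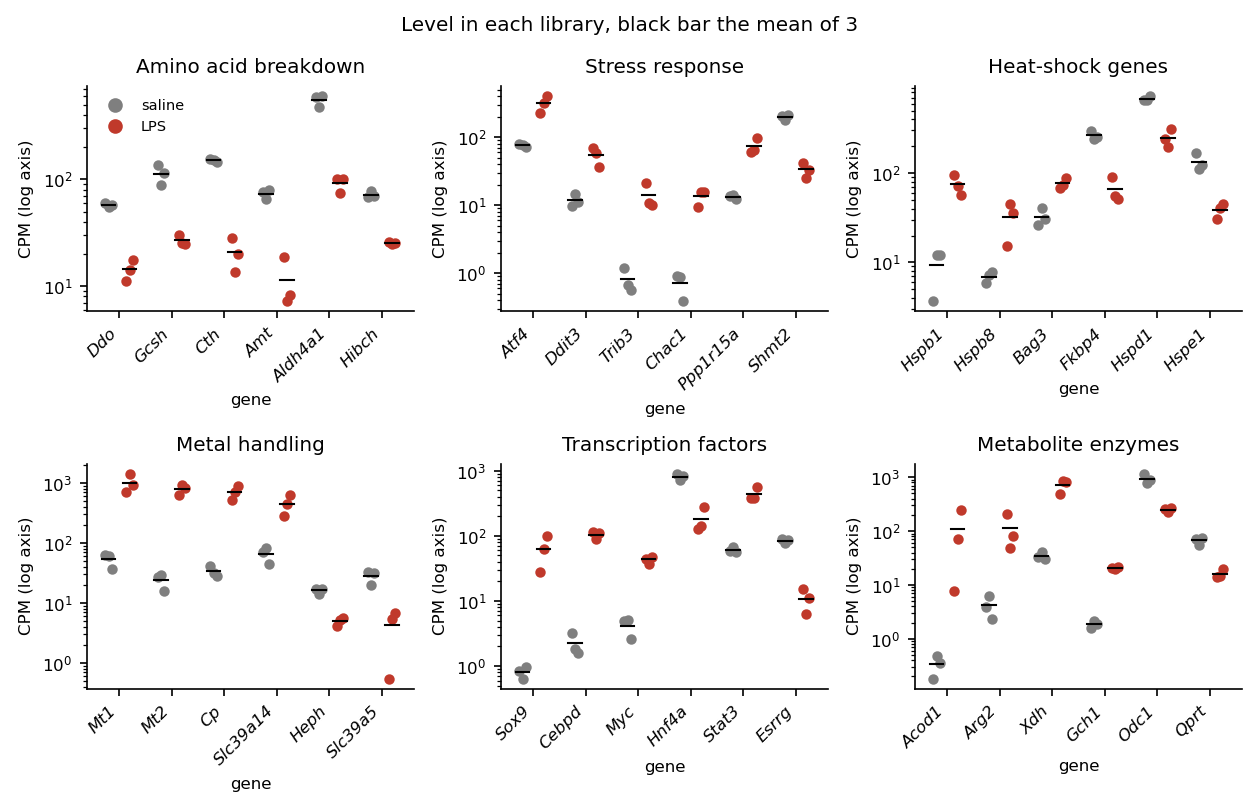
CPM of 36 genes in each saline (grey) and LPS (red) library on log axes, in panels by function, with black bars at the means of 3. Within every panel the LPS points of each gene lie wholly above or wholly below the saline points.

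Among 20 genes known to respond to glucocorticoids, 11 rose and 2 fell (median 1.5). Fkbp5 changed by 1.19 (no call without saline replicate 2 or LPS replicate 1, adjusted p = 0.071 and 0.058), Per1 (1.81) and Cdkn1a (3.49) rose, and the classical targets Tsc22d3 (0.12) and Sgk1 (0.55) did not pass. The receptor itself fell: Nr3c1 stood at 105, 102 and 124 CPM in saline and 50.2, 60.7 and 64.6 CPM in LPS (-0.92 ± 0.14, adjusted p = 0.0013), without overlap. Of 21 clock genes 8 rose and 2 fell (38.1% and 9.52%, against 20.9% and 22.2% of all tested genes; median 0.65). Hlf, an output factor of the clock, stood at 124, 103 and 103 CPM in saline and 5.92, 7.1 and 8.97 CPM in LPS (-3.91 ± 0.23, adjusted p = 3.7e-05). Cry1, a repressor of the core loop, stood at 4.46, 5.51 and 4.05 CPM in saline and 11.8, 14.7 and 22.6 CPM in LPS (1.81 ± 0.28, adjusted p = 0.0014). LPS and saline did not overlap in either gene. Cry2 (1.72), Bhlhe40 (1.74) and Per1 rose and Tef (-1.37) fell, while the core activators Arntl (0.58) and Clock (-0.30) did not pass. The labels give no hour of collection.

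Genes of the cytoskeleton and of adhesion were mostly higher, 30 of 48 with 3 lower (median 1.22). Tubb2a, a beta-tubulin, stood at 29.5, 33.4 and 26.6 CPM in saline and 276, 179.6 and 162 CPM in LPS (2.79 ± 0.25, adjusted p = 0.00013). Tuba1c, an alpha-tubulin, stood at 67, 57 and 61.5 CPM in saline and 269, 252 and 269 CPM in LPS (2.09 ± 0.17, adjusted p = 9.9e-05). Plaur, the urokinase receptor, stood at 2.84, 4.39 and 4.2 CPM in saline and 45.2, 44.4 and 35.8 CPM in LPS (3.45 ± 0.33, adjusted p = 0.00018). The LPS libraries were above the saline libraries in each case. Tpm4 (1.82), Actg1 (1.44), Actb (1.25) and the hyaluronan receptor Cd44 (2.26) rose, and villin of the brush border, Vil1 (-1.24), and radixin, Rdx (-1.04), fell. Vimentin, an intermediate filament of mesenchyme and injured tubules, did not pass (Vim, 35.1, 63.3 and 49.9 CPM in saline and 36.6, 76.2 and 35.4 CPM in LPS, adjusted p = 1). Matrix genes went both ways, 15 higher and 12 lower of 42 (median -0.09, or 0.06 with library totals as the scale). The proteases Mmp7 (6.87) and Adamts4 (4.98) and the inhibitor Timp1 (5.23) rose, Timp1 by 5.93 without saline replicate 2. The glomerular collagen genes Col4a3 (-1.9) and Col4a4 (-1.54) and fibronectin, Fn1 (-1.67), fell, and of 24 collagens 10 fell and 4 rose (8 and 2 without saline replicate 1 or 3; median -1.42). Spp1, which encodes the secreted phosphoprotein osteopontin, had the largest gain in FPKM of any gene. It stood at 479.9, 473 and 456 FPKM in saline and 9461, 4673 and 6920.1 FPKM in LPS (3.72 ± 0.40, adjusted p = 0.00027, ENSMUSG00000029304, chromosome 5, 104435118 to 104441050, plus strand), with all saline libraries close together and LPS replicate 1 the highest.

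Other large gains in FPKM were in Guca2b, a natriuretic peptide gene (uroguanylin), at 234, 208 and 208 FPKM in saline and 866, 3461 and 3079 FPKM in LPS, (3.41 ± 0.59, adjusted p = 0.0023), and in the ferritin gene Fth1, at 808, 637 and 588 FPKM in saline and 2232, 2353 and 2261 FPKM in LPS. Guca2b was much lower in LPS replicate 1 than in the other LPS libraries but above saline. With the segment markers set aside, the largest losses were those of mt-Cytb, mt-Co1, mt-Co3, mt-Co2 and mt-Atp6 and of 3 nuclear pseudogenes of mitochondrial genes; mt-Co1, mt-Atp6 and the pseudogene Gm10925 were not called. Outside the mitochondrial chromosome, pseudogenes and the segment markers, the largest loss was that of Gpx3, the plasma glutathione peroxidase made by the proximal tubule, at 9863, 6907 and 9741 FPKM in saline and 3214, 7909 and 10592 FPKM in LPS. LPS replicate 1 was low and the other LPS libraries lay within or above the saline range, and Gpx3, chosen after its values were seen, did not pass (adjusted p = 0.57).

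Genes of several routes of cell death were higher, 18 of 33 with 1 lower (21 and 2 without LPS replicate 1; median 0.98). Mlkl, the membrane-permeabilizing effector of necroptosis, stood at 1.16, 1.29 and 1.41 CPM in saline and 35.5, 39 and 24.8 CPM in LPS (4.69 ± 0.25, adjusted p = 2.7e-05). Acsl4, a lipid enzyme of ferroptosis, stood at 61.1, 50.9 and 58.5 CPM in saline and 298, 280.4 and 247 CPM in LPS (2.28 ± 0.16, adjusted p = 6.7e-05). Both were higher in every LPS library. Ripk3 (3.56), Casp4 (3.89), Bak1 (2.0) and Birc2 (1.59) rose, Bcl2 (-1.0) fell, and Gpx4 (-0.40), which protects against ferroptosis, did not pass. Targets of p53 were higher in 8 of 23 cases and lower in 1 (none without saline replicate 1 or LPS replicate 2; median 0.67). Cdkn1a (p21), an inhibitor of the cell cycle, stood at 17, 33 and 14.1 CPM in saline and 171, 264 and 288 CPM in LPS (3.49 ± 0.39, adjusted p = 0.00032), and Aen (1.39), Plk3 (1.78) and Gdf15 (4.4) rose, whereas Trp53 (0.44) and Mdm2 (0.40) did not pass. Gdf15 was 5.27 without saline replicate 1 and 3.77 without LPS replicate 1. Among 28 cell cycle genes 7 were lower and 2 higher (25% and 7.14%, against 22.2% and 20.9% of all tested genes; median -0.37), with Ccnd1 at 185, 166 and 163 CPM in saline and 54.7, 32.3 and 15.5 CPM in LPS (-2.33 ± 0.45, adjusted p = 0.004) and Tyms (-1.54) and Mki67 (-2.0) lower and Ccne1 (1.79) higher. The Ccnd1 ranges were apart. Without saline replicate 1 or LPS replicate 2, 4 cell cycle genes fell, and without LPS replicate 2 or 3 or saline replicate 2 or 3 only 1 rose.

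Enzymes that make small inflammatory metabolites held some of the largest rises. Of 30 such genes 15 rose and 6 fell (median 0.86). Acod1, which makes itaconate from a TCA intermediate, stood at 0.183, 0.486 and 0.351 CPM in saline and 7.76, 72.3 and 247 CPM in LPS (8.3 ± 1.38, adjusted p = 0.0019). Xdh, the xanthine oxidoreductase that ends purine breakdown in urate, stood at 32.8, 41.6 and 30.5 CPM in saline and 489.6, 865 and 831 CPM in LPS (4.38 ± 0.29, adjusted p = 5.5e-05). Gch1, which starts synthesis of the nitric oxide synthase cofactor tetrahydrobiopterin, stood at 1.62, 2.15 and 1.89 CPM in saline and 20.4, 19.8 and 21.5 CPM in LPS (3.44 ± 0.40, adjusted p = 0.00038). Acod1 varied widely among the LPS libraries, with replicate 1 lowest and replicate 3 highest, while Gch1 was nearly equal in all 3; no group ranges overlapped. Without LPS replicate 3 the Acod1 change was 6.86 and without LPS replicate 1 it was 8.91. The sphingosine kinase Sphk1 (4.01), the uridine phosphorylase Upp1 (2.92) and the synthase Nos3 (2.24) also rose. Some genes of NAD and polyamine synthesis were lower: Qprt, the entry of tryptophan carbon into NAD, stood at 71.6, 55.9 and 75.3 CPM in saline and 14.2, 14.4 and 19.6 CPM in LPS (-2.07 ± 0.28, adjusted p = 0.00075), Odc1, the first enzyme of polyamine synthesis, stood at 1158, 779.7 and 877 CPM in saline and 256, 222 and 274 CPM in LPS (-1.9 ± 0.19, adjusted p = 0.00021), and Nmrk1 (-1.47) fell. Qprt and Odc1 had separate ranges. The salvage enzyme Nampt (0.94) rose.

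Growth factor genes were mixed, 10 higher and 6 lower of 35 (28.6% and 17.1%, against 20.9% and 22.2% of all tested genes). Their median was 0.4. Inhbb, which encodes the activin B subunit, stood at 1.85, 2.33 and 2.55 CPM in saline and 12.6, 30.8 and 36 CPM in LPS (3.56 ± 0.39, adjusted p = 0.00028). Egfr (0.89), Tgfbr1 (1.21) and Tgfb1 (1.04) rose, Met (-0.92) and Fgf9 (-1.08) fell, and amphiregulin, the EGF receptor ligand Areg, stood at 0.0811, 0.156 and 0 CPM in saline and 3.84, 5.01 and 6.71 CPM in LPS (5.98 ± 1.07, adjusted p = 0.0027). Inhbb and Areg were higher in all LPS libraries; without saline replicate 2 the Areg change was 6.97. Of 34 vascular genes 10 were higher and 7 lower (29.4% and 20.6%, against the 20.9% and 22.2% of all tested genes; median 0.16). The adhesion molecule Icam1 stood at 15.5, 12.3 and 13.3 CPM in saline and 135, 171 and 209 CPM in LPS (3.65 ± 0.20, adjusted p = 3.3e-05) and the vasoconstrictor gene Edn1 (3.03) rose. Angpt1, the stabilizing ligand of the receptor TIE2, and Tek, the receptor gene, changed by -2.28 and -2.05, and Ehd3 (-2.08), typical of glomerular endothelium, fell. Pan-endothelial Pecam1 (-0.45) and Kdr (-0.37) did not pass. Lysosome and autophagy genes had 9 rises and 8 falls of 40 (22.5% and 20%, near the shares of all tested genes; median 0.06): Optn (1.39), Ctss (2.22) and Wipi1 (1.79) rose and Lipa (-2.85), Hexa (-1.1) and Tpp1 (-1.13) fell. These counts were 15 and 8 without LPS replicate 1, 11 and 5 without LPS replicate 2, and 8 and 13 without LPS replicate 3. Of 23 hypoxia genes 7 rose and 4 fell (30.4% and 17.4%, against 20.9% and 22.2% of all tested genes), with a median of 0.33. Angptl4 (2.0) was higher and Vegfa (-1.45) and P4ha1 (-1.42) were lower.

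**Figure D5:**
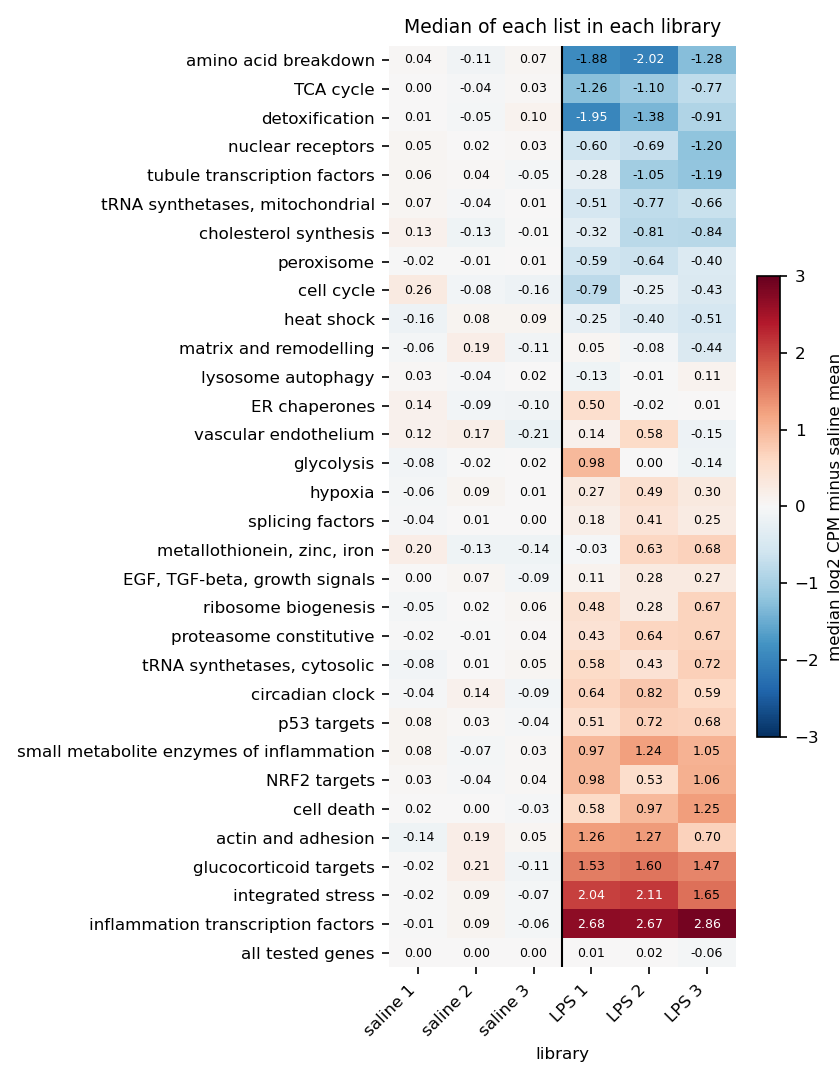
Median over each list of log2 CPM minus the saline mean, in each saline and LPS library, coloured from blue (lower) to red (higher). The 3 LPS libraries share their sign for most lists, and glycolysis is the clearest exception (0.98 in LPS replicate 1, 0 and -0.14 in the other 2).

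Reading list medians library by library, the 3 LPS animals were close for inflammation transcription factors (2.68, 2.67 and 2.86) and glucocorticoid targets (1.53, 1.6 and 1.47). They spread more for amino acid breakdown (-1.88, -2.02 and -1.28) and detoxification (-1.95, -1.38 and -0.91), where LPS replicate 3 was least lowered. Tubule transcription factors ran in another order, at -0.28, -1.05 and -1.19. The farthest saline value among the lists was 0.26, for the cell cycle in saline replicate 1. Among symbol families, keratins with a plain number as symbol reached -1.07 in saline replicate 1, the library low in urothelial markers.

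By the naming rule, the largest rises outside the cytokine, interferon and segment lists, in genes of at least 1 FPKM on average, were those of Fosl1, Ankrd2, Tmem59l, Acod1, Sprr2f, Lcn2, Ngp, Havcr1, Majin, Serpina3i, Cd14 and Saa2. Fosl1, an AP-1 subunit, Ankrd2, a muscle ankyrin repeat protein, and Tmem59l had no count in saline. Ankrd2 stood at 0.83, 5.54 and 3.99 CPM in the LPS libraries, which is at least 185-fold higher by the same saline floor of 3 counts for the group (0.0186 CPM), and Tmem59l at 1.38, 0.192 and 0.456 CPM, at least 36.3-fold higher, a gene that limma on log2(FPKM + 1) did not call. Serpina3i, a serine protease inhibitor related to antichymotrypsin, stood at 0, 0.313 and 0.148 CPM in saline and 8.65, 31.9 and 23.2 CPM in LPS (7.06 ± 0.99, adjusted p = 0.00088). Ngp, a granule protein of neutrophils, stood at 0, 0.104 and 0.074 CPM in saline and 5.04, 8.88 and 16.1 CPM in LPS (7.31 ± 1.05, adjusted p = 0.001). The neutrophil marker sum given above was also higher in LPS, but it was highest in LPS replicate 2 and Ngp in LPS replicate 3. Saa2, the acute-phase apolipoprotein, stood at 4, 3.73 and 3.86 CPM in saline and 288, 635 and 466 CPM in LPS (6.9 ± 0.60, adjusted p = 0.00012). The groups were separate for these genes, as the naming rule required. Sprr2f, an envelope protein of stressed epithelia, stood at 0, 0.0521 and 0 CPM in saline and 5.84, 4.99 and 3.94 CPM in LPS (adjusted p = 0.00056), too few saline counts for a fold. The Majin call was lost without saline replicate 2 or 3 or LPS replicate 2 (adjusted p = 0.059 to 0.077). Without saline replicate 2 the Serpina3i change was 8.09 and that of Ngp 7.96. In all, 19 tested genes had counts in every LPS library and none in saline, and 4 had the reverse; since 6 of the 9 libraries behind the expression filter had LPS, the filter passes the first kind more easily and the numbers are not to be compared.

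The largest falls by the same rule were those of Hsd3b2, A4gnt, Smcp, Acmsd, Ugt1a2, Hsd3b4, Clec2h, Hsd3b3, Alb, Tmem207, Hao2 and Fancd2os. Hsd3b2 and its relatives Hsd3b3 and Hsd3b4 encode 3-beta-hydroxysteroid dehydrogenases, and counts may be split among such similar copies. Hsd3b2 (ENSMUSG00000063730, chromosome 3, 98709255 to 98724543, minus strand, GRCm38) stood at 313, 188 and 319 CPM in saline and 0.384, 4.72 and 2.28 CPM in LPS (-6.8 ± 0.88, adjusted p = 0.00062). Acmsd, which diverts tryptophan breakdown away from NAD, stood at 292, 147 and 255 CPM in saline and 0.507, 5.39 and 4.81 CPM in LPS (-6.02 ± 0.89, adjusted p = 0.0011). A4gnt, a glycosyltransferase gene, stood at 12.9, 16.4 and 5.95 CPM in saline and 0.108, 0.211 and 0.0729 CPM in LPS (-6.48 ± 0.86, adjusted p = 0.0007). LPS replicate 1 was the lowest library for Hsd3b2 and Acmsd, and no ranges overlapped, as the rule required. Without LPS replicate 2 the Hsd3b2 change was -7.64. Albumin mRNA was set by 1 library: Alb stood at 311, 5.54 and 8.15 CPM in saline and 1.06, 4.87 and 3.35 CPM in LPS. Without saline replicate 1 its change was -1.11 (adjusted p = 0.44). The Alb call also ended without any single LPS library (0.097 to 0.11). The Ugt1a2 call was lost without LPS replicate 2 or 3 (adjusted p = 0.06 and 0.053), and that of Fancd2os without any single saline library or LPS replicate 2 (0.055 to 0.088).

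Short motifs were counted in the promoters of the most changed genes. The 100 largest rises and the 100 largest falls with a promoter in the RefSeq table were set beside all 10499 matched genes, of 15001 tested symbols. The motif GTTAAT stood in 20% of the promoters of falls, 3% of those of rises and 4.6% of all, and the shares below are in that order. C/EBP-type sites (TTGCNNAA) stood in 15%, 25% and 8.4%, AP-1 sites (TGACTCA or TGAGTCA) in 6%, 15% and 3.7%, and the NF-kB consensus in 1%, 13% and 5%. The STAT site (TTCNNNGAA) stood in 4%, 15% and 7.1%, the interferon core (GAAANNGAAA) in 2%, 9% and 3.2%, and the TATA box (TATAAA) in 8%, 22% and 7.6%. The metal response core named above stood in 25%, 20% and 35.8%, the E-box CACGTG in 9%, 3% and 10.1%, and the heat-shock pair GAANNTTC in 7%, 7% and 5.7%. Both strands were searched. Different motifs overlapped in at most 53 promoters (metal response core with E-box), and in 26 for the heat-shock pair with STAT sites, 7 for NF-kB with STAT sites and 3 for GTTAAT with C/EBP sites. A match describes letters in a window and is not evidence of binding.

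The 250 bases before the start are printed, 5′ to 3′ on the gene's strand, for the largest falls by the naming filter with GTTAAT there. They are Hsd3b4 (chr3:98510568-98510817 on the minus strand), Hao2 (chr3:98893231-98893480 on the minus strand) and Slc22a29 (chr19:8218901-8219150 on the minus strand), a member of the organic anion transporter family, which stood at 9.13, 3.94 and 11.5 CPM in saline and 0.0615, 0.537 and 0.456 CPM in LPS (-4.55 ± 0.86, adjusted p = 0.0035). Alb was passed over because its call rests on 1 library. Capitals mark GTTAAT on either strand.
Hsd3b4: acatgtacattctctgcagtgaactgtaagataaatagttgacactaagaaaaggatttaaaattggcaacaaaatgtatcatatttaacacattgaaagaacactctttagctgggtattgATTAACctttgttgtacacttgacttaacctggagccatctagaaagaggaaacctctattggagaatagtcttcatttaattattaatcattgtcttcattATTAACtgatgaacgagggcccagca
Hao2: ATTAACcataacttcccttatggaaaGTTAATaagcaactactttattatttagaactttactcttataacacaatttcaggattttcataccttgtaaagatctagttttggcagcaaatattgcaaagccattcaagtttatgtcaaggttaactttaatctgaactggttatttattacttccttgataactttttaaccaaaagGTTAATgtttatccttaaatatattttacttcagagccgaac
Slc22a29: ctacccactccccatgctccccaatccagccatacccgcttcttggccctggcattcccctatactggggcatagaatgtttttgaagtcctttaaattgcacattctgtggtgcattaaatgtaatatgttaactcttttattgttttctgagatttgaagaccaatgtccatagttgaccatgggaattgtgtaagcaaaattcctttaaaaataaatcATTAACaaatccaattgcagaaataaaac

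The same stretch is printed for the 2 largest rises by the naming filter with a C/EBP-type site there. They are Lcn2 (chr2:32387740-32387989 on the minus strand) and Ngp (chr9:110419558-110419807 on the plus strand). By the same filter the 2 largest with an NF-kB consensus are printed, Serpina3i (chr12:104262872-104263121 on the plus strand) and Chil1 (chr1:134181906-134182155 on the plus strand). Chil1 encodes a chitinase-like secreted lectin and stood at 0.284, 0.0695 and 0.203 CPM in saline and 23.8, 11.5 and 9.5 CPM in LPS (6.33 ± 0.82, adjusted p = 0.00062). Capitals mark the C/EBP-type site in the first pair and the NF-kB consensus in the other pair.
Lcn2: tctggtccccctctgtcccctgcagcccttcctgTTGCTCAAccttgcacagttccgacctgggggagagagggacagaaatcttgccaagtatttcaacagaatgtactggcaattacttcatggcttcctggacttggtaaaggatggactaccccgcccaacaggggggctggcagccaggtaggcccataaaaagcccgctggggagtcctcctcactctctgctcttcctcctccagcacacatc
Ngp: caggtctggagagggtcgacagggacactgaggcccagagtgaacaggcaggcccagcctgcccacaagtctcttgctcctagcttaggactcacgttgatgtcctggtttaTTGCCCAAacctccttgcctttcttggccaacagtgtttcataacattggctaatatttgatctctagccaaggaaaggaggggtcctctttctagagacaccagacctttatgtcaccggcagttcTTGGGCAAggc
Serpina3i: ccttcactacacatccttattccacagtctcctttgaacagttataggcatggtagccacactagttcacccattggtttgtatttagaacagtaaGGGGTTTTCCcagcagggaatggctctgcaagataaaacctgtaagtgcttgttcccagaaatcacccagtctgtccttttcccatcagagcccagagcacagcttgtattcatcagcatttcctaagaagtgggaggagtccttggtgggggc
Chil1: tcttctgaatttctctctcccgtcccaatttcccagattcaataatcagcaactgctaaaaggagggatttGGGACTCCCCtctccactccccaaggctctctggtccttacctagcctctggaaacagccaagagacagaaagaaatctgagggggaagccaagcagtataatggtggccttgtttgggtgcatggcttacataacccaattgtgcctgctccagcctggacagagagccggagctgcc

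Called cytochrome P450 genes were led by Cyp2b10 (5.33) and Cyp2j8 (3.16) upward and Cyp2f2 (-3.98) and Cyp2d26 (-3.56) downward. Of the 38 tested, 4 rose and 10 fell (10.5% and 26.3%, against 20.9% and 22.2% of all tested genes). Without saline replicate 1 or 2, 6 of them fell, without LPS replicate 1, 7 rose and 11 fell, and the Cyp2b10 change was 7.95 without saline replicate 2 and the Cyp2f2 change -3.01 without saline replicate 1. Without LPS replicate 3 the changes of Cyp2b10, Cyp2j8 and Cyp2d26 were 4.51, 2.56 and -4.33. Of 13 claudins, the seals of tight junctions, 3 rose and 4 fell (23.1% and 30.8%, against 20.9% and 22.2% of all tested genes). Cldn7 (3.77), Cldn4 (2.9) and Cldn3 (2.65) rose, and Cldn10 (-3.08) and Cldn16 (-2.03) fell most. Without saline replicate 2 or 3, 2 claudins rose and 2 fell, and the Cldn3 call was lost there and without LPS replicate 1 (adjusted p = 0.074 to 0.085). Among keratins with a plain number as symbol, 2 of 12 were higher and 1 lower (16.7% and 8.33%, against 20.9% and 22.2% of all tested genes). None was lower without saline replicate 1 or 3 or LPS replicate 2 or 3. Krt6b, a keratin outside that count, had no counts in saline and stood at 0.615, 3.68 and 15.9 CPM in the LPS libraries, at least 361-fold above the saline floor. Krt20, a keratin of differentiated urothelium and gut, stood at 2.13, 3.61 and 7.12 CPM in saline and 576, 227 and 553 CPM in LPS (6.72 ± 0.92, adjusted p = 0.00078). It was high in LPS replicate 3, the library low in urothelial markers, as well as in the other LPS libraries, and its change was 7.34 without saline replicate 3. Of 309 Zfp zinc finger genes 50 rose and 59 fell (16.2% and 19.1%, against 20.9% and 22.2% of all tested genes), with a median of -0.13. With library totals as the scale 58 of the Zfp genes rose and 26 fell (median 0.01). Leaving out saline replicate 1, 2 or 3 or LPS replicate 2 gave 33 to 41 rises and 30 to 35 falls among them.

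Genes often used as references were not all stable. Of 15, 5 rose and 2 fell (33.3% and 13.3%, against 20.9% and 22.2% of all tested genes). Their called share, 46.7%, was near the 43.1% of all tested genes. B2m stood at 269, 209.8 and 179 CPM in saline and 1214, 1612 and 1341 CPM in LPS (2.66 ± 0.22, adjusted p = 0.00011). Actb stood at 429, 459 and 379.9 CPM in saline and 1006, 1082 and 923 CPM in LPS (1.25 ± 0.18, adjusted p = 0.001). Both were higher in every LPS library. Sdha (-1.21) and Gusb (-0.77) fell; the Gusb call was lost without saline replicate 1 or 2 or LPS replicate 1 or 2 (adjusted p = 0.057 to 0.068). Without saline replicate 2 or 3, 3 of the 15 rose, without LPS replicate 1, 4 fell, and without saline replicate 1 or LPS replicate 2, 1 fell. Ppia (-0.23), Tbp (0.35) and Polr2a (-0.02) did not pass. Gapdh stood at 62.9, 42.5 and 52.1 CPM in saline and 217, 77 and 74.3 CPM in LPS (1.23 ± 0.40, adjusted p = 0.038), with LPS replicate 1 far above the others, and its change was 0.57 without that library (adjusted p = 0.051). The Gapdh call was also lost without any single saline library (0.06 to 0.11).

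The called share was 30.7% among genes of 0.5 to 1.33 FPKM and 53.7% among those above 14.1 FPKM, and 45.6% of protein-coding genes, 46.7% of lincRNAs and 16.6% of processed pseudogenes were called. Of 75 small nucleolar RNAs 19 were higher and 1 lower (25.3% and 1.33%, against 20.9% and 22.2% of all tested genes). Their called share, 26.7%, was below the 43.1% of all tested genes. Of the 283 genes named here, 96 overlap a gene on the opposite strand, and since the strand handling of the counting is not given in the sources used here, their values are less certain. Autosomes lay between 40% and 46.1% called, and the X chromosome at 36%. On the Y chromosome 9 of 20 tested genes were higher: Rbmy, an RNA-binding protein gene known from the testis, and 8 predicted genes. Of the predicted genes, 1 had no counts in saline or in LPS replicate 1. Rbmy stood at 0.0811, 0.0347 and 0.0924 CPM in saline and 0.784, 8.69 and 8.73 CPM in LPS (6.42 ± 1.19, adjusted p = 0.0032). LPS replicates 2 and 3 were high and replicate 1 was between them and saline. These genes may share reads, so their 9 calls are not separate findings. Other Y genes did not follow: Ddx3y (0.27) and Eif2s3y (0.21) did not pass and Uty (-0.68) fell.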

How the data were processed

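The deposited table held raw counts and FPKM for 34310 genes in 9 mouse kidney libraries, and every column of single samples matched a label (0 columns unused). Per the submitters' processing notes, the tools included HISAT2 2.2.1, cutadapt 1.9 and StringTie 2.1.6, besides edgeR and DESeq2, and the genome build was GRCm38. Which program made the counts, with which annotation and strand setting, is not given in the sources used here. Library preparation was strand-marking (dUTP), per the labels' protocols. FPKM values were computed by the authors and served here for the expression filter and for levels compared between genes.

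The deposited counts of all 9 libraries were fitted with edgeR 4.0.16 (quasi-likelihood test, TMM factors, 3 groups), over genes with a mean of at least 0.5 FPKM, and LPS was compared with saline. P-values were adjusted by the Benjamini-Hochberg method over all 15015 genes (threshold 0.05). The SE is the log2 change divided by the square root of F. Floors, which cover counting error only, were 3 counts over a group. Alternatives used DESeq2 1.42.0 and limma 3.58.1. The fit was tested on simulated data. Biotypes and exon positions came from GENCODE M21 (34193 genes matched), and promoters from RefSeq GRCm38.p6.

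Members and lists were chosen with earlier results of these data known. Genes were named by rule: the 12 largest rises and falls (non-overlapping, at least 1 FPKM), the 8 largest gains and losses in FPKM, up to 4 list members with the smallest adjusted p and 2 going the other way, members at a key step, up to 2 rises and falls per symbol family, and the 5 widest in LPS. Other list members were named for their known role after their values were seen. Some genes that meet the rule are not reported here. Lists and families are described by counts and medians, with no test over the list.

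The replicate numbers of saline and LPS were checked for pairing: deviations of same-numbered libraries from their group means correlated at -0.29, 0.11 and -0.11. Libraries of different numbers correlated at up to 0.35 (saline replicate 1 with LPS replicate 3). The fit carries no replicate block, although with 3 libraries a group the check cannot exclude pairing.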

Additional observations from a re-analysis of the deposited data

How the results depend on the processing

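The number of genes called (6473) was 4884 to 6903 when single libraries were left out, with 2445 to 3499 higher and 2433 to 3404 lower. It was 3754 (1911 higher, 1843 lower) with a filter of 5 FPKM, which tests fewer genes. When a change beyond 2-fold was tested it was 1711 (810 higher, 901 lower). With only the libraries rich in urothelial transcripts it was 3730 (1857 higher, 1873 lower), an alternative chosen after seeing the data. That alternative left out saline replicate 1, LPS replicate 3 and any thymosin β4 library low in these transcripts, so it has fewer samples. Its lower count cannot be put down to saline replicate 1 and LPS replicate 3 alone. The other planned settings gave 5284 to 7333 calls, the last with DESeq2. With library totals as the scale 3658 genes were higher and 2581 lower. A replicate block gave 5284 (2546 higher, 2738 lower), although the numbers are not known to pair the mice. Of the 239 genes named and called, 131 kept their call under every alternative of the 24 run, and no called change reversed its sign. With limma on log2(FPKM + 1) 8 named genes lost their call (Gnal, Cs, Tars2, Fgf21, Edem1, Tmem59l, Alb and Gapdh), and with library totals 3 did (Cs, Tars2 and Edem1). Of 2832 counts of list or family members called under the alternatives, 438 were beyond 1.5 times the main count, and those from leaving out 1 saline or LPS library are given beside the lists and families described. With 3 mice a group, a difference that did not pass is not shown to be absent, and the causes of changes between settings were not tested.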
